A study of Mus musculus with 18 samples.

Results

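Growth hormone acts on hepatocytes through its receptor, Ghr, and the 10 genes described here encode that receptor, the kinase and transcription factors that it activates, and genes known to be induced or set by the signal. They are Ghr, Jak2, Stat5a, Stat5b, Socs2, Cish, Igf1, Igfals, Bcl6 and Onecut1. They were found by symbol among the 25266 genes listed for each mouse, and all 10 were present. FF mice were male Ppp6r3 fl/fl C57BL/6 mice, in which the gene for the protein phosphatase 6 subunit SAPS3 is flanked by loxP sites. LKO mice were male mice that carried the same floxed alleles together with Alb-Cre. The gene is thus deleted where the albumin promoter is active, chiefly in hepatocytes. Which cells of the liver kept the gene was not tested here. No group with Alb-Cre and unfloxed alleles was analysed here, so in every comparison of LKO with FF mice the presence of Cre and the loss of Ppp6r3 cannot be told apart. Mice of both genotypes were given a control diet with 10 kcal% fat (CD) or a high fat diet with 32.5 kcal% (HFD), starting at 8 weeks of age and lasting 16 weeks. Liver RNA was sequenced from 4 FF CD, 4 LKO CD, 5 FF HFD and 5 LKO HFD mice. The labels number the samples and say nothing more of their independence, so the p-values measure the spread between these samples.

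When growth hormone binds GHR, the kinase JAK2 phosphorylates STAT5A and STAT5B, which dimerize, enter the nucleus and bind DNA. STAT5B is the main form in hepatocytes. The liver answers with secreted IGF1 and its carrier IGFALS, and with the feedback inhibitors SOCS2 and CISH. The signal also sets the levels of transcription factors such as BCL6 and ONECUT1, which need not be induced by it. In rodents the hormone is released in sharp pulses in males and more evenly in females, and this pattern sets the sex-biased expression of many liver genes. RNA levels show how much transcript was present and not how much of a kinase or STAT protein was active.

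Expression is given as RPKM, the reads of a gene scaled by its length and by the depth of the library, which was 23.4 to 37.0 M reads per mouse. Differences are on the scale of log2(RPKM + 1), which understates the change of genes with low values. They come from a limma fit of the 4 groups over the 11090 genes whose RPKM averaged 0.5 or more, a filter that all 10 genes passed. A gene was called where its adjusted p was under 0.05 and its fold change over 1.5. Ppp6r3 itself lay between 7.55 and 10.98 RPKM in the FF mice and between 3.88 and 4.87 RPKM in the LKO mice. The hepatocyte gene Alb lay between 21308 and 36965 RPKM. In whole liver, fewer cells of a type and less RNA per cell cannot be told apart. The comparisons share groups of mice, so their values are set side by side and not counted as separate evidence.

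The receptor and the secreted targets were the most abundant transcripts of the pathway. Averaged over the 18 mice, Ghr stood at 110 RPKM, Igf1 at 61.9 RPKM and Igfals at 19.4 RPKM, and this order held in 18 of 18 mice. Bcl6 (7.11 RPKM), Socs2 (5.64 RPKM) and Stat5b (4.48 RPKM) came next. Their order was not fixed, since Bcl6 exceeded Socs2 in 12 of 18 mice and Socs2 exceeded Stat5b in 11 of 18 mice. Stat5b exceeded Stat5a (3.27 RPKM) in 17 of 18 mice. Jak2 (2.74 RPKM), Cish (2.29 RPKM) and Onecut1 (1.67 RPKM) were lowest, and Stat5a exceeded Jak2 in 11, Jak2 exceeded Cish in 13 and Cish exceeded Onecut1 in 10 of 18 mice.

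The genes fell into a steady and a variable set when mice of the same group were compared. The SD within groups on the log2 scale was 0.10 for Jak2, 0.11 for Ghr, 0.14 for Stat5b, 0.16 for Stat5a and 0.17 for Igf1, against a median of 0.16 over all tested genes. It was 0.35 for Igfals, 0.49 for Onecut1, 0.54 for Bcl6, 0.59 for Socs2 and 0.67 for Cish. The feedback inhibitors and target transcription factors thus varied more between like-treated mice than 97.7% or more of the tested genes. The values rest on 102 to 1002 reads per mouse for Socs2, 417 to 2012 for Bcl6, 32 to 727 for Cish and 18 to 188 for Onecut1.

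**Figure D1:**
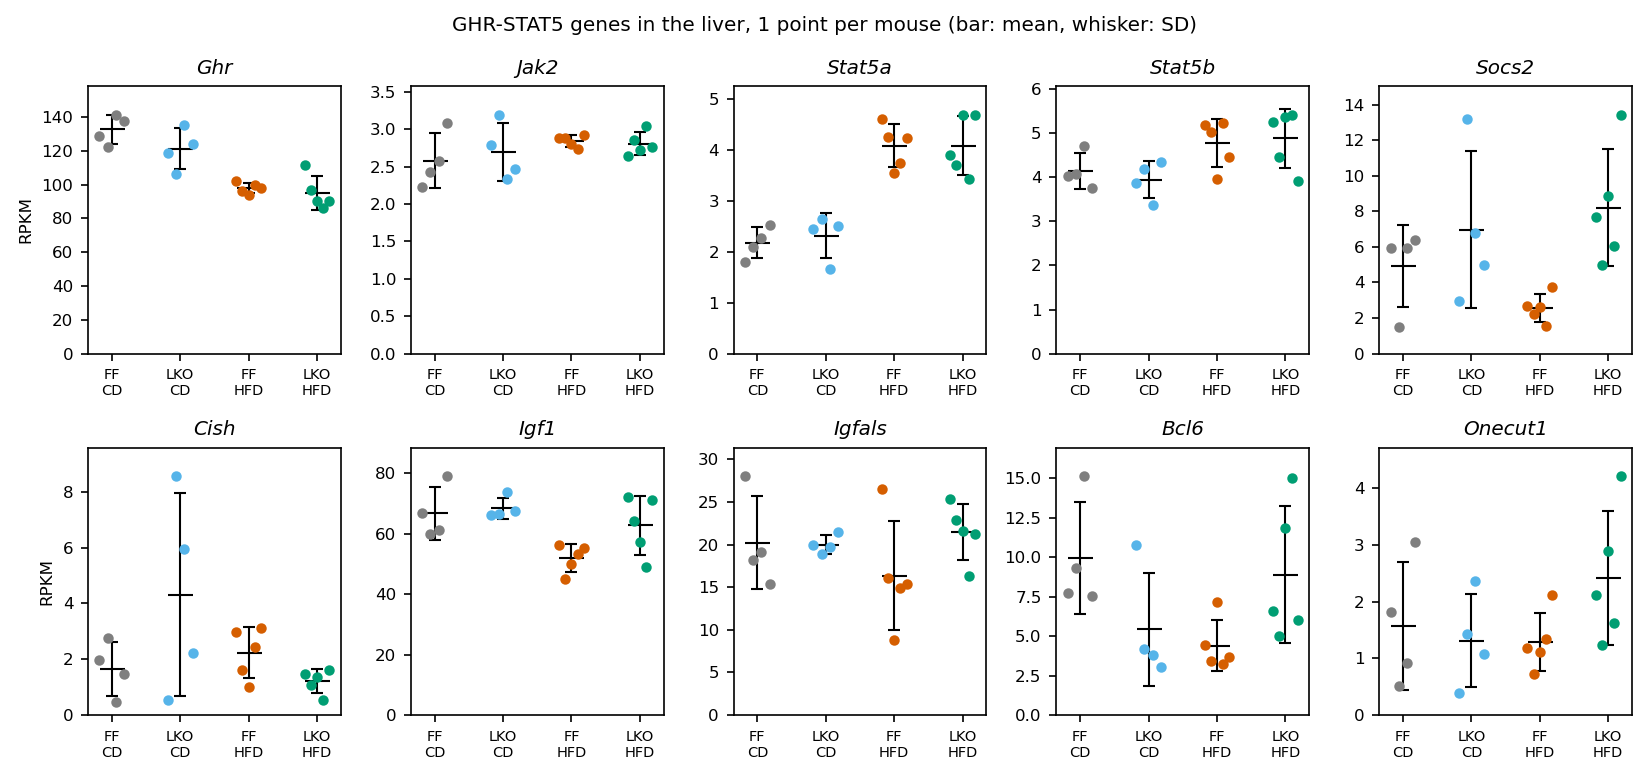
RPKM (vertical axes, from 0) of the 10 genes in the FF CD, LKO CD, FF HFD and LKO HFD mice, with 1 point per mouse, a bar for the group mean and whiskers for the SD. Stat5a is higher in every HFD mouse than in every CD mouse, Ghr is lower in FF HFD than in FF CD mice, and Socs2 is lower in every FF HFD mouse (1.58 to 3.76 RPKM) than in every LKO HFD mouse (4.96 to 13.4 RPKM).

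Ghr (chromosome 15, 3317760 to 3583492, minus strand, in the GENCODE annotation of GRCm38) was lower on HFD. Its RPKM was 129, 122, 141 and 138 in the FF CD mice and 102, 96.0, 93.9, 99.5 and 97.9 in the FF HFD mice. In the LKO CD mice it was 119, 106, 135 and 124, and in the LKO HFD mice 112, 96.9, 90.0, 86.3 and 90.1. Every FF HFD mouse lay below every FF CD mouse, while the highest LKO HFD mouse lay within the range of the LKO CD mice. The difference between the diets was -0.43 in FF mice (standard error 0.090, adjusted p = 0.00255, limma; exact permutation test, p = 0.0159, the smallest that 4 mice against 5 allow) and -0.35 in LKO mice (adjusted p = 0.0404, limma). Both passed the adjusted p and neither reached the limit on the fold change. The value in FF mice held this under every setting tried (adjusted p from 0.00125 to 0.0151). That in LKO mice did not with RPKM scaled to an equal sum in all mice (adjusted p = 0.0584), after quantile normalization (0.158), with only the LKO groups in the fit (0.115), or on leaving out LKO CD mouse 1 (0.103), 3 (0.134) or 4 (0.0919), FF HFD mouse 2 (0.0510), or LKO HFD mouse 2 (0.0513), 3 (0.112), 4 (0.0792) or 5 (0.0589). The genotypes differed by -0.13 on CD and by -0.047 on HFD (adjusted p = 0.843 and 0.797, limma).

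Jak2, the kinase bound to the receptor, kept a narrow range. Its RPKM was 2.23 to 3.08 in FF CD, 2.33 to 3.19 in LKO CD, 2.73 to 2.92 in FF HFD and 2.65 to 3.05 in LKO HFD mice. No comparison of Jak2 passed the test, with a difference of 0.11 between the diets in FF mice (95% confidence interval -0.052 to 0.27) and 0.048 in LKO mice (-0.11 to 0.21).

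Stat5a rose on HFD in both genotypes and had the lowest adjusted p of the 10 genes between the diets. Its RPKM was 1.81, 2.10, 2.28 and 2.52 in FF CD mice and 4.61, 4.26, 3.56, 3.75 and 4.24 in FF HFD mice. In LKO CD mice it was 2.45, 2.64, 1.67 and 2.51, and in LKO HFD mice 3.90, 3.70, 4.70, 3.44 and 4.70. The lowest HFD mouse of either genotype lay above the highest CD mouse. The mean rose 1.88-fold in FF mice and 1.76-fold in LKO mice. On the log2(RPKM + 1) scale the rise was 0.68 (standard error 0.10, adjusted p = 0.000261, limma) in FF mice and 0.62 (standard error 0.10, adjusted p = 0.01004, limma) in LKO mice, and the exact permutation test gave its smallest p for 4 mice against 5, 0.0159, in each. LKO and FF mice did not differ detectably on CD (0.056, 95% confidence interval -0.18 to 0.29) or on HFD (-0.0028, -0.21 to 0.21).

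These values of Stat5a rested near the limit on the fold change under some settings. The rise in FF mice was 0.58, just under that limit, after quantile normalization. In LKO mice it was 0.51 after quantile normalization, 0.52 after centring on the median, 0.52 on leaving out LKO CD mouse 3, and 0.58 on leaving out LKO HFD mouse 3 or 5. The adjusted p stayed under 0.05 in each of these, at most 0.0422. On the scale of estimated reads (limma voom), which adds no pseudocount of 1 RPKM, the rise was 0.92 in FF mice and 0.83 in LKO mice.

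Stat5a and Stat5b are neighbours on chromosome 11, transcribed away from each other with 8626 bases between them (Stat5b from 100780731 to 100850724 on the minus strand, Stat5a from 100859351 to 100885169 on the plus strand). Their transcripts are partly alike: 608 stretches of 50 bases occur in both, which is 8.21% of those of Stat5a and 10.98% of those of Stat5b. How reads that match both were counted is not given in the sources used here. Stat5b had an RPKM of 3.75 to 4.71 in FF CD, 3.39 to 4.35 in LKO CD, 3.98 to 5.23 in FF HFD and 3.93 to 5.43 in LKO HFD mice, so its groups overlapped. The difference between the diets was 0.16 in FF mice (adjusted p = 0.244, limma) and 0.25 in LKO mice (adjusted p = 0.141, limma), so a rise of Stat5b was not detected.

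Markers of several other cell types also differed between the diets. The summed RPKM of 7 liver endothelial genes was 15.3 to 32.9 in FF CD and 12.4 to 34.8 in LKO CD mice, against 41.0 to 67.6 in FF HFD and 32.3 to 44.0 in LKO HFD mice. Of these 7 genes, 5 were called higher on HFD in FF mice, against 5.11% of all tested genes, and 0 in LKO mice (limma), where 1.27% of all tested genes were called in either direction. In LKO mice 7 of 7 had a positive difference and 5 an unadjusted p under 0.05. The summed RPKM of 8 Kupffer cell and macrophage genes was 42.9 to 61.5 in FF CD, 36.8 to 59.6 in LKO CD, 52.3 to 105 in FF HFD and 52.2 to 99.4 in LKO HFD mice, and 2 of the 7 tested were called higher on HFD in FF mice and 1 of 7 in LKO mice. None of the endothelial or Kupffer cell genes was listed at 0 in all mice of a group. Of 7 tested stellate cell and fibroblast genes, 2 were called higher on HFD in FF mice, and in LKO mice 0 were called or had an unadjusted p under 0.05 (limma), with 6 of 7 differences negative. Of 2 tested neutrophil genes, S100a9 was called higher on HFD in FF mice and S100a8 in LKO mice. The summed RPKM of all 5 neutrophil genes was 1.08 to 2.31 in FF CD, 1.33 to 2.06 in LKO CD, 2.13 to 7.21 in FF HFD and 3.36 to 6.29 in LKO HFD mice, with Ly6g and Mpo at 0.0437 RPKM or less in every mouse. Of 2 tested adipocyte genes, Cidec was called higher in FF mice. The summed RPKM of all 5 was 0.679 to 1.13 in FF CD and 1.09 to 6.02 in LKO CD mice. It was 10.99 to 48.5 in FF HFD and 2.28 to 12.8 in LKO HFD mice. Averaged over the 18 mice, Cidec stood at 10.0 RPKM and Cfd at 0.694 RPKM. Adipoq, Plin1 and Lep did not exceed 0.760, 0.113 and 0.254 RPKM in any mouse. The sum thus mostly follows Cidec, and which liver cells held its transcripts was not tested. The part of these cells in the rise of Stat5a was not tested. The 3 genes whose pattern over the 18 mice was most like that of Stat5a were Tbl1xr1 (Pearson's r = 0.95), Stn1 (r = 0.93) and Elmod3 (r = 0.93), a description across mice that share their diet.

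Of the 10 genes, 2 were called between FF HFD and FF CD mice, Stat5a higher and Bcl6 lower, where 6.6% of all tested genes were called. With the adjusted p alone, Ghr and Igf1 joined them, and 20.6% of all tested genes passed in that way. The groups did not overlap for these 4 genes, as for 18.3% of all tested genes. Between LKO HFD and LKO CD mice, 1 of the 10 was called (Stat5a), against 1.27% of all genes, and with the adjusted p alone Ghr joined it, against 4.05%. The groups did not overlap for 1 gene, Stat5a, against 9.04% of all tested genes. The median difference of the 10 genes was -0.21 in FF mice and 0.17 in LKO mice, where the medians of all tested genes were 0.071 and 0.067.

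Igf1, the growth factor that carries the growth hormone signal to the body, was lower on HFD in FF mice. Its RPKM was 67.0, 60.03, 61.1 and 79.1 in FF CD mice and 56.2, 45.1, 49.9, 53.4 and 55.2 in FF HFD mice. It was 66.3, 66.4, 73.7 and 67.4 in LKO CD mice and 72.2, 64.2, 57.4, 49.0 and 71.1 in LKO HFD mice. Every FF HFD mouse lay below every FF CD mouse, whereas of the LKO HFD mice 2 lay within the range of the LKO CD mice and 3 below it. The difference in FF mice was -0.35 (standard error 0.11, adjusted p = 0.0344, limma; exact permutation test, p = 0.0159), with a ratio of the means of 0.778, which passed the adjusted p and not the limit on the fold change. The adjusted p rose to 0.128 with RPKM scaled to an equal sum in all mice. It also passed 0.05 on leaving out FF CD mouse 1 (0.0673) or 4 (0.112), or FF HFD mouse 2 (0.0908), 3 (0.0573) or 4 (0.0531). In LKO mice the difference was -0.14 (adjusted p = 0.508, limma), and the test of the difference between the genotypes' responses gave 0.22 (adjusted p = 0.536, limma), so the responses were not shown to differ. On HFD, Igf1 was 0.26 higher in LKO than in FF mice, which did not pass after adjustment (adjusted p = 0.193, limma; exact permutation test, p = 0.0635).

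Igfals, which binds IGF1 in the circulation and prolongs its life, was spread widely in FF mice. Its RPKM was 28.02, 18.2, 19.2 and 15.4 in FF CD mice and 26.5, 16.1, 8.80, 14.9 and 15.4 in FF HFD mice. It lay between 18.9 and 21.4 in LKO CD mice and between 16.3 and 25.3 in LKO HFD mice. All groups overlapped, and no comparison was called. Between LKO and FF mice on HFD the difference was 0.44 (adjusted p = 0.240, limma), and it was called only without FF HFD mouse 1, at 0.62 (adjusted p = 0.0452, limma).

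Of 8 other tested ligands, receptors and binding proteins of the IGF axis, 2 were called higher and 1 lower on HFD in FF mice, against 5.11% and 1.49% of all tested genes. Igfbp2, a binding protein made by hepatocytes, fell from 147 ± 39.3 RPKM (SD, n = 4) to 48.9 ± 14.0 RPKM (SD, n = 5), a difference of -1.60 (adjusted p = 0.00146, limma). Igfbp1, a binding protein held down by insulin, rose from 8.81 ± 2.18 RPKM (SD, n = 4) to 21.8 ± 11.5 RPKM (SD, n = 5), by 1.08 (adjusted p = 0.0151, limma), and Igfbp7 rose by 0.70 (adjusted p = 0.0142, limma). The call of Igfbp1 was lost with only the FF groups in the fit (adjusted p = 0.0547), and that of Igfbp7 without FF CD mouse 3 (0.0581). Which liver cells held the Igfbp7 transcripts was not tested. In LKO mice 0 of the 8 were called between the diets by limma or limma voom, and 1 had an unadjusted p under 0.05 in limma. On HFD, Igfbp1 was lower in LKO than in FF mice (difference of -1.02, adjusted p = 0.0460, limma), the only one of the 8 called there. That call was lost under 5 of 11 other settings, limma voom among them (adjusted p = 0.0534), and with 15 of the 18 mice left out in turn (adjusted p up to 0.118).

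Socs2 encodes an inhibitor that STAT5 induces and that ends growth hormone signalling, and it separated the genotypes on HFD. Its RPKM was 2.65, 2.20, 2.64, 1.58 and 3.76 in FF HFD mice and 7.69, 4.96, 8.87, 6.04 and 13.4 in LKO HFD mice. Every LKO HFD mouse lay above every FF HFD mouse, with means 3.19 times apart. The difference was 1.33 (standard error 0.33, adjusted p = 0.0314, limma; exact permutation test, p = 0.00794, the smallest that 5 mice against 5 allow). It was the only one of the 10 genes called between LKO HFD and FF HFD mice, where 2.07% of all tested genes were called, and the only one without overlap, against 4.67%. The size of the difference changed little, from 1.15 to 1.47 with any mouse left out. The adjusted p rose above 0.05 with no filter on low values (0.0698), without sharing the variance between genes (0.0698), and without FF HFD mice 2 (0.0747), 3 (0.0554) or 4 (0.0793) or LKO HFD mice 3 (0.0812) or 5 (0.0699). Of 7 tested stellate cell and fibroblast genes, 2 (Col1a1 and Col3a1) were called lower in LKO HFD than in FF HFD mice, against 1.17% of all tested genes, and the summed RPKM of all 8 such genes was 75.6 to 116 in FF HFD and 52.3 to 103 in LKO HFD mice. Of 8 hepatocyte markers 1 (Apoa1) was called higher, against 0.902% of all tested genes, and of 2 adipocyte genes 1 (Cidec) lower. The adipocyte genes Adipoq, Plin1 and Lep did not exceed 0.760, 0.113 and 0.254 RPKM in any mouse. None of the 7 endothelial genes was called (limma), and 7 of 7 had a negative difference (median -0.43) and 4 an unadjusted p under 0.05. The part of these cells in the difference of Socs2 was not tested.

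On CD, Socs2 did not separate the genotypes. Its RPKM was 5.94, 1.51, 5.92 and 6.37 in FF CD mice and 2.93, 13.2, 6.79 and 4.97 in LKO CD mice, and the difference of 0.39 did not pass (adjusted p = 0.905, limma). FF CD mouse 2 stood far below the other 3. Between the diets, Socs2 differed by -0.64 in FF mice (adjusted p = 0.210, limma), and by -1.02 (adjusted p = 0.0380, limma) without FF CD mouse 2. In LKO mice it differed by 0.30 (adjusted p = 0.658, limma). The difference between these responses was 0.94 (adjusted p = 0.362, limma), so the gap between the genotypes was not shown to depend on diet. The genes most like Socs2 over the 18 mice were Tada2a (Pearson's r = 0.78), Plcxd2 (r = 0.75) and Fubp1 (r = 0.74).

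Cish, the other inhibitor induced by STAT5, was not called between the genotypes on HFD, where Socs2 was. The difference of Cish there was -0.52 (adjusted p = 0.471, limma; exact permutation test, p = 0.0714), opposite in sign to that of Socs2. From mouse to mouse, with group means removed, Socs2 and Cish had a Pearson's r of 0.41 (Spearman's rho = 0.40, 18 mice). Its RPKM was 1.97, 2.75, 0.454 and 1.47 in FF CD mice, 2.99, 1.63, 0.986, 2.45 and 3.12 in FF HFD mice and 1.46, 1.08, 1.37, 0.550 and 1.61 in LKO HFD mice. In LKO CD mice it was 0.533, 8.56, 5.96 and 2.22, a range of 16.1-fold within a group. The groups overlapped in all comparisons and none was called. The largest differences were -0.97 between the diets in LKO mice (adjusted p = 0.163, limma) and -1.28 for the interaction of diet and genotype (adjusted p = 0.268, limma). The interaction was called only without LKO CD mouse 1, at -1.77 (adjusted p = 0.0444, limma).

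Among the other inhibitors of the pathway, the SOCS, phosphatase and PIAS genes, 1 of 13 was called, and only between the diets in FF mice. There 5.11% of all tested genes were called higher and 1.49% lower. Ptpn6, which encodes the phosphatase SHP-1, rose on HFD in FF mice from 4.41 ± 0.310 RPKM (SD, n = 4) to 7.84 ± 1.08 RPKM (SD, n = 5), by 0.70 (adjusted p = 0.000123, limma). In the same comparison 5 of 7 endothelial and 2 of 7 Kupffer cell and macrophage genes were called higher. Which liver cells held the Ptpn6 transcripts was not tested. The receptor and kinase partners held 2 calls among 8 tested genes in FF mice, 1 higher and 1 lower, beside the same shares of all tested genes. The prolactin receptor gene Prlr rose from 2.91 ± 1.44 RPKM (SD, n = 4) to 7.16 ± 0.654 RPKM (SD, n = 5), by 1.14 (adjusted p = 0.000353, limma), and the leptin receptor gene Lepr fell by 0.84 (adjusted p = 0.0413, limma). The call of Lepr was lost under 3 of 11 other settings (adjusted p up to 0.0804) and without FF CD mouse 3 (0.171) or 4 (0.112) or FF HFD mouse 1 (0.0766), 2 (0.0645), 3 (0.0739) or 5 (0.0660). In LKO mice Jak3 of this list was higher on HFD by 0.76 (adjusted p = 0.00147, limma). It was the only one of the list called there, where 1.27% of all tested genes were called. Jak3 was not called in FF mice, but every FF HFD mouse lay above every FF CD mouse. Its RPKM was 1.13 to 1.55 in FF CD and 1.84 to 2.46 in FF HFD mice. It was 0.767 to 1.30 in LKO CD and 1.91 to 2.79 in LKO HFD mice. Which liver cells held the Jak3 transcripts was not tested. Among 4 other STAT factors tested, 1 was called between the diets in LKO mice, against the same 1.27%. This was Stat3, the factor of interleukin-6 signalling, which was higher on HFD by 0.996 (adjusted p = 0.0266, limma). The call of Stat3 was lost under 3 of 11 other settings (adjusted p up to 0.0807). With the adjusted p alone 2 of the 4 passed, both higher on HFD, against 4.05% of all tested genes. None of the 4 was called there without LKO CD mouse 1, 3 or 4 or LKO HFD mouse 3 or 4. Of 8 adaptors and insulin receptor substrates, 0 were called in any comparison by limma or limma voom, and 0 to 3 had an unadjusted p under 0.05 in limma. The share of all tested genes called by limma in these comparisons was 0.225% to 6.6%.

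**Figure D2:**
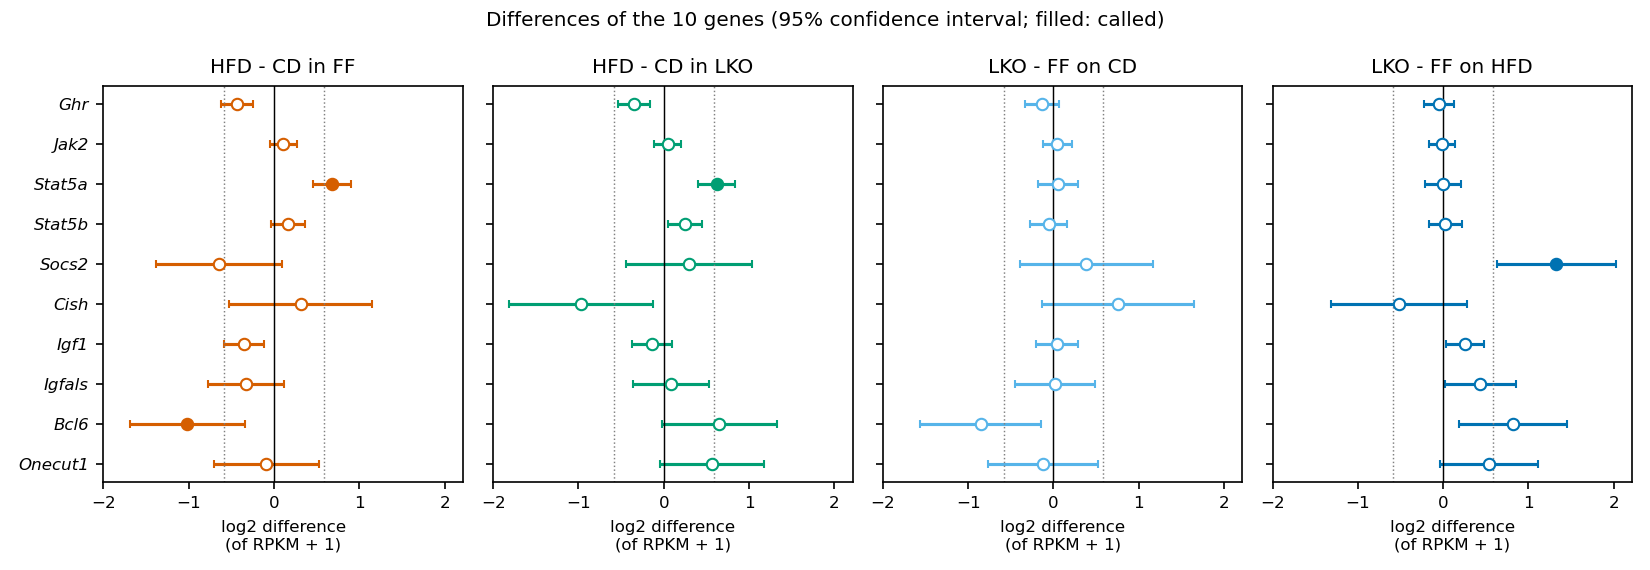
Differences on the log2(RPKM + 1) scale (horizontal axes) for the 10 genes in 4 comparisons, as points with 95% confidence intervals from limma; filled points were called, and dotted lines mark a fold change of 1.5. Called are Stat5a and Bcl6 between the diets in FF mice, Stat5a between the diets in LKO mice, and Socs2 between the genotypes on HFD.

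Bcl6 encodes a transcriptional repressor that competes with STAT5 for DNA and is higher in male than in female liver. It lies on chromosome 16 from 23965052 to 23988852 on the minus strand. The sequences around the starts of the genes were searched for TTCNNNGAA, the core of the STAT5 site. This motif reads the same on both strands, so a match counts once and overlaps no other motif searched. RefSeq promoter windows (GRCm38.p6, 250 bases before to 50 after a start) were at hand for 9 of the 10 genes, in 15 windows, and not for Socs2. Of all 32851 windows, 8.30% held the motif, against 5 of the 15 windows of these genes. Counted by gene, 9.55% of all 27025 genes had it, against 3 of the 9, Bcl6, Cish and Igfals. A count of 3 or more matches was found in 11 of all windows (0.0335%), and 1 of those is a window of Bcl6. That window stands at a RefSeq start inside the span of Bcl6 given above, and not upstream of the whole gene. A match is a match of letters and was not shown to bind STAT5 here. The Bcl6 sequences are shown because the gene was called and the motif is repeated there, with the motif in capitals; neither overlaps an annotated exon. Below them are the first 20 bases of Cish from its RefSeq start, inside an annotated exon, where the motif stands a pair of times.
Bcl6, chr16:23981284-23981533, minus strand: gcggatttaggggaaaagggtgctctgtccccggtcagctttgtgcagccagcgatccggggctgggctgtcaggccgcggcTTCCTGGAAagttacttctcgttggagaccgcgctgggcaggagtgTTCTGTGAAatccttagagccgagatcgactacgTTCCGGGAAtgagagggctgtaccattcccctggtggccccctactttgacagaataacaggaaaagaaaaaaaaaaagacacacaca
Bcl6, chr16:23988853-23989102, minus strand: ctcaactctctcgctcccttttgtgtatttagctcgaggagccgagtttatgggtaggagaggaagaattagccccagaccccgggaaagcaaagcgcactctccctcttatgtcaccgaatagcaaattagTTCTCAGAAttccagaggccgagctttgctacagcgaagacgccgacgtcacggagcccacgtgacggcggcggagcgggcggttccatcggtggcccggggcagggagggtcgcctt
Cish, chr9:107296659-107296678, plus strand: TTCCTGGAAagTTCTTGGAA

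Bcl6 fell on HFD in FF mice. Its RPKM was 7.74, 9.32, 15.1 and 7.53 in FF CD mice and 4.43, 3.44, 7.16, 3.21 and 3.69 in FF HFD mice, so that every FF HFD mouse lay below every FF CD mouse. The mean fell by 55.8%, and the difference was -1.02 (standard error 0.32, adjusted p = 0.0313, limma; exact permutation test, p = 0.0159). The call was lost with no filter on low values (adjusted p = 0.0642), without sharing the variance between genes (0.0626), and on leaving out FF CD mouse 2 (0.0591) or 3 (0.123), or FF HFD mouse 2 (0.0697), 4 (0.0712) or 5 (0.0580), while the difference stayed between -1.18 and -0.81.

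In LKO mice Bcl6 did not follow. Its RPKM was 10.8, 4.17, 3.77 and 3.05 in LKO CD mice and 6.60, 5.01, 11.9, 15.0 and 6.05 in LKO HFD mice, and LKO CD mouse 1 stood apart from the other 3. The difference between the diets was 0.65 (adjusted p = 0.237, limma), and 0.99 (adjusted p = 0.112, limma) without LKO CD mouse 1. On CD the LKO mice differed from FF mice by -0.85 (adjusted p = 0.493, limma), or by -1.19 (adjusted p = 0.146, limma) without LKO CD mouse 1, and on HFD by 0.82 (adjusted p = 0.141, limma; exact permutation test, p = 0.0397), and in both cases the groups overlapped.

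The interaction of diet and genotype for Bcl6, the difference between these responses, was the largest of the 10 genes at 1.67 (standard error 0.45, 95% confidence interval 0.72 to 2.62). It narrowly missed the threshold (adjusted p = 0.0548, limma). It passed with a pseudocount of 0.1 (1.92, adjusted p = 0.0495), after quantile normalization (1.68, 0.0490), with limma voom on estimated reads (1.96, 0.0438), and without LKO CD mouse 1 (2.004, 0.0108), FF HFD mouse 3 (1.83, 0.0390), LKO HFD mouse 1 (1.74, 0.0456) or LKO HFD mouse 2 (1.82, 0.0392). Of the 10 genes, 0 were called in the interaction in the main setting, where 2.44% of all tested genes were called, and 2 (Bcl6 and Cish) passed an unadjusted p under 0.05, against 16.5%. The genes most like Bcl6 over the 18 mice were Cdh1 (Pearson's r = 0.85), Cobl (r = 0.80) and Btg3 (r = 0.80).

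Onecut1, the hepatocyte factor HNF6, was low and not called in any comparison. Its RPKM was 1.81, 0.504, 0.914 and 3.05 in FF CD mice, 0.396, 1.42, 2.36 and 1.07 in LKO CD mice, 1.19, 0.716, 1.11, 1.34 and 2.11 in FF HFD mice and 2.12, 1.24, 2.89, 1.62 and 4.21 in LKO HFD mice. All groups overlapped. On HFD the LKO mice were 0.54 above the FF mice (adjusted p = 0.291, limma; exact permutation test, p = 0.0635).

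Between LKO CD and FF CD mice, 0 of the 10 genes were called by limma, where 0.225% of all tested genes were called, and the groups overlapped for all 10, where they did not for 5.07% of all genes. At an unadjusted p under 0.05, 1 gene (Bcl6) passed, against 7.67% of all genes, and limma voom called 0 as well. The widest confidence interval was that of Cish, from -0.13 to 1.65, and the narrowest that of Jak2, from -0.12 to 0.21, and a change of 1.5-fold lay within the intervals of Cish, Socs2, Bcl6 and Onecut1.

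Correlations between the members from mouse to mouse ranged widely. Over the 18 mice, with group means removed, Socs2 and Onecut1 had the highest Pearson's r of the 45 pairs (r = 0.75, Spearman's rho = 0.79). The lowest Pearson's r was that of Cish and Bcl6 (r = -0.62, rho = -0.31, and r = -0.50 without the 2 farthest mice), and the lowest Spearman's rho that of Igf1 and Bcl6 (r = -0.56, rho = -0.60, and r = -0.42 without the 2 farthest mice). The median over the 45 pairs was 0.035. In the 3 mice with the least Cish, FF CD 3, LKO HFD 4 and LKO CD 1 (0.454, 0.550 and 0.533 RPKM), Bcl6 stood at 15.1, 15.0 and 10.8 RPKM. These were the 1st, 2nd and 4th highest values of Bcl6 among the 18 mice, and they came from 3 different groups. The correlations are a description over mice that share diet and genotype, and each value of a pair comes from the same library.

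**Figure D3:**
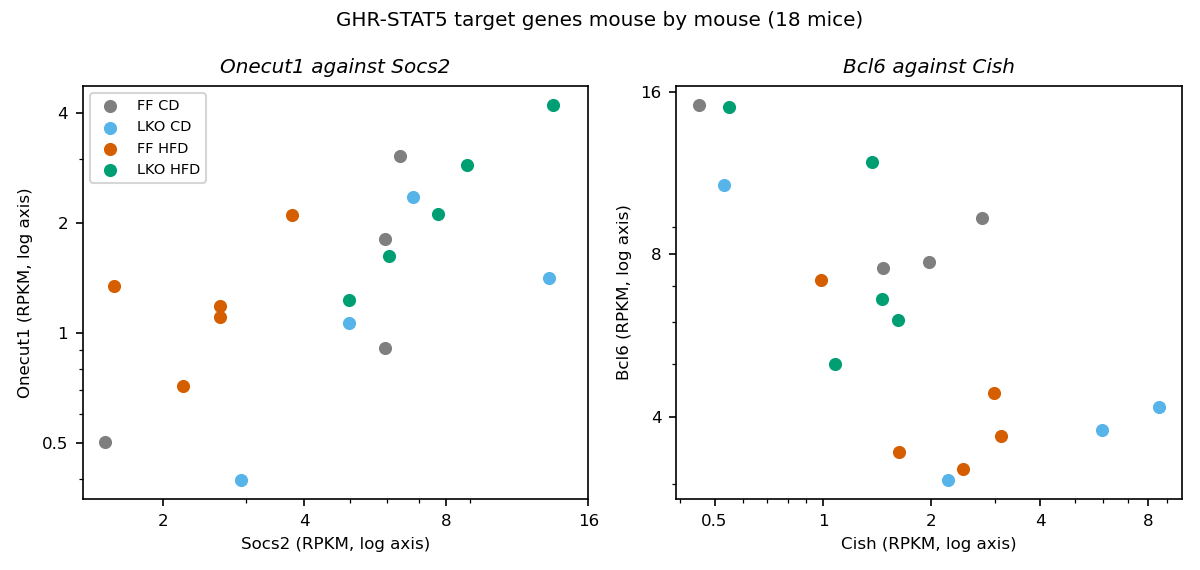
Onecut1 against Socs2 and Bcl6 against Cish in RPKM on logarithmic axes, with 1 point per mouse coloured by group (18 mice). Onecut1 rises with Socs2 (r = 0.75 with group means removed), and the 3 mice with the least Cish, 1 each from FF CD, LKO CD and LKO HFD, are among the 4 with the most Bcl6.

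The sex-biased genes of the liver, which depend on the growth hormone pattern and STAT5B, differed widely between the diets in FF mice. Of 18 male-biased genes tested, 15 fell on HFD in FF mice and 0 rose, with a median difference of -2.38, against 1.49% of all tested genes called lower. Of the 18, Moxd1 passed the filter through FF CD, where it was high (mean 9.98 RPKM). Its means were 0.203 RPKM in LKO CD, 0 in FF HFD and 0.221 RPKM in LKO HFD mice. The counts and medians of the male-biased list were not repeated without it. Of 16 tested female-biased genes, 11 rose and 0 fell, with a median of 1.46, against 5.11% of all tested genes called higher. A further 14 female-biased genes lay below the filter, and some that passed did so through the group where they were high. Of the 16, 14 also reached a mean of 0.5 RPKM over the 13 mice outside FF HFD, and of these 9 rose and 0 fell, with a median of 1.41, a count added after seeing the data. Hsd3b5, a male-biased steroid dehydrogenase, stood at 133 ± 26.7 RPKM (SD, n = 4) in FF CD and 1.71 ± 1.66 RPKM (SD, n = 5) in FF HFD mice. Cyp2b9, a female-biased cytochrome P450, stood at 0.0163 ± 0.0109 RPKM (SD, n = 4) in FF CD and 69.3 ± 40.8 RPKM (SD, n = 5) in FF HFD mice. Its mean was 0.910 RPKM in LKO CD and 0.497 RPKM in LKO HFD mice. Cyp2b9 thus passed the filter through FF HFD, where it was high, and is not among the 14. Many of these genes have near-identical relatives among which reads may have been split, so their single values are uncertain. Of 8 hepatocyte marker genes, 3 (Apoa1, Cps1 and Serpina1a) were also called lower on HFD in FF mice, while their summed RPKM, most of it Alb, was 31531 to 39659 in FF CD and 34606 to 44141 in FF HFD mice. Their part in the fall of the male-biased genes was not tested.

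In LKO mice few genes of these lists were called between the diets. Of the male-biased genes 1 (Selenbp2) rose and 0 fell, with a median of 0.17, and the call was lost without LKO CD mouse 3 or 4 or LKO HFD mouse 3. Of the female-biased genes 0 were called by limma or limma voom, with a median of 0.011, and 1 had an unadjusted p under 0.05 in limma. On CD the lists differed between the genotypes, with 4 male-biased genes lower in LKO than in FF mice (median -1.14, against 0.135% of all genes called lower) and 2 female-biased genes higher (median 0.62, against 0.0902%). Moxd1, which passed the filter through FF CD, is kept in the male-biased counts and medians of every comparison. On HFD, 10 male-biased genes were higher in LKO than in FF mice (median 1.40, against 0.902%) and 6 female-biased genes lower (median -0.84, against 1.17%), or 4 of the 14 that reached the filter without the FF HFD mice. Hsd3b5 stood at 63.1 ± 27.9 RPKM (SD, n = 4) in LKO CD and 58.8 ± 11.4 RPKM (SD, n = 5) in LKO HFD mice, between the values of the FF groups. The interaction was called for 13 of the 18 male-biased genes, all with a positive sign, and for 9 of the 16 female-biased genes (8 of those 14), all with a negative sign, against 2.44% of all tested genes. With any mouse left out these numbers were 9 to 14 and 7 to 11. With any mouse left out, the male-biased genes called lower in FF mice on HFD numbered 15 to 16, and those called higher in LKO than in FF mice on HFD numbered 7 to 12. The latter number was 6 without sharing the variance between genes, and 6 to 11 over the other settings.

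The counts on CD were less firm. With a mouse left out, the male-biased genes called lower in LKO CD than in FF CD mice numbered 2 to 6, and the female-biased genes called higher 0 to 3. The former number was 2 without FF CD mouse 2 or 3 or LKO CD mouse 2 or 4. The latter was 0 without FF CD mouse 2 or 3, LKO CD mouse 2 or 4 or FF HFD mouse 3 or 5, and 1 without FF CD mouse 1 or 4 or LKO HFD mouse 3. Other settings gave 0 to 4 and 0 to 3. Bcl6, the member that is itself male-biased, differed by -1.02 between the diets in FF mice beside a male-biased median of -2.38, and by 0.65 in LKO mice beside a median of 0.17. Between LKO and FF mice it differed by -0.85 on CD beside a median of -1.14, and by 0.82 on HFD beside a median of 1.40. The 4 comparisons share groups of mice, and Bcl6 was called in the first alone.

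**Figure D4:**
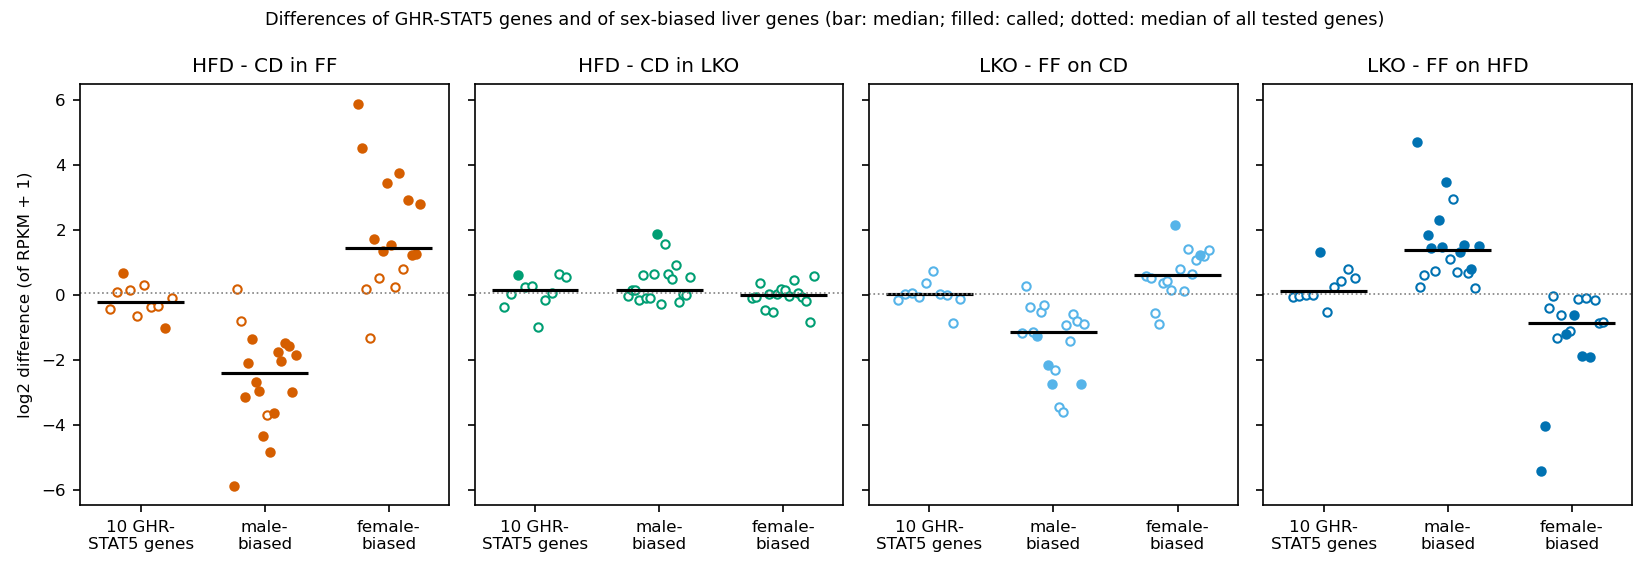
Differences on the log2(RPKM + 1) scale (vertical axis) of the 10 genes of the pathway, of 18 male-biased and of 16 female-biased liver genes in 4 comparisons, with 1 point per gene (filled where called), a bar for the median of each list and a dotted line for the median of all tested genes. Male-biased genes lie low (median -2.38) and female-biased genes high (median 1.46) on HFD in FF mice, and both lists lie near 0 on HFD in LKO mice.

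Among 12 tested regulators of sex-biased expression, 2 rose and 1 fell on HFD in FF mice, against 5.11% and 1.49% of all tested genes. Nr1i3, the xenobiotic receptor CAR that activates Cyp2b genes, rose from 36.5 ± 7.45 RPKM (SD, n = 4) to 72.7 ± 11.2 RPKM (SD, n = 5), by 0.99 (adjusted p = 0.000746, limma). Tox rose by 0.67 (adjusted p = 0.0205, limma), and the forkhead factor gene Foxa3 fell by 0.80 (adjusted p = 0.00162, limma). The call of Tox was lost after quantile normalization or centring and without FF CD mouse 1, 2 or 3 or FF HFD mouse 3. The numbers called higher were 1 to 4 over the other settings and 1 to 2 with a mouse left out. On HFD, Foxa3 was 0.59 higher in LKO than in FF mice (adjusted p = 0.0307, limma), and Nr1i2, the pregnane X receptor, was the only one called in the interaction (-0.67, adjusted p = 0.0228, limma). The call of Foxa3 on HFD was lost under 5 of 11 other settings and without FF HFD mouse 1, 3 or 5 or LKO HFD mouse 2, 3, 4 or 5. That of Nr1i2 was lost without FF CD mouse 3 (adjusted p = 0.0663) or LKO CD mouse 4 (0.0509). Esr1 and Hnf4a were not called in any comparison.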

How the data were processed

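Per the labels, livers of 18 mice were sequenced, and the submitters' processing notes name HISAT2 2.0.4, Partek and the build mm10. The authors deposited RPKM values, 1 table per mouse, used here as deposited. The annotation, the strand setting and the treatment of reads matching several genes are not given in the sources used here.

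The 4 groups were fitted together with limma 3.58.1 (R 4.3.3; eBayes with a trend) on log2(RPKM + 1) over the 11090 genes whose RPKM averaged 0.5 or more. All p-values are two-sided, and limma's are Benjamini-Hochberg adjusted over those genes. Exact permutation tests cannot go below 0.0286 (4 against 4), 0.0159 (4 against 5) or 0.00794 (5 against 5).

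Depth was recovered from the steps between low RPKM values of single-exon genes, and whole reads (within 0.05) for 8330 (75.1%) of the tested genes. Reads of Ghr, Stat5a, Stat5b and Igf1, not recovered so, were estimated from annotated length multiplied by 0.795, the median ratio of recovered to annotated length. The fit was tested on simulated data. Positions come from GENCODE, windows from RefSeq.

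The members, the lists and the genes named, which are the members, up to 3 called genes per list and comparison with the largest differences, and the 3 genes most like each called member, were chosen with earlier results of these data known. The text names some of these and, for counts of 0, a few uncalled regulators. Python 3.11.15, numpy 2.4.6, pandas 2.3.3, scipy 1.17.1 and matplotlib 3.10.9 were used.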

Additional observations from a re-analysis of the deposited data

Results flagged for a closer look

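In each of 40 groups of 4 or 5 mice (10 genes in 4 groups), Dixon's test asked whether the highest or lowest mouse stood apart from the others. It did in 3 groups, where chance gives about 1 in 20. Socs2 was 1.51 RPKM in FF CD mouse 2, against 5.92 to 6.37 in the other FF CD mice. Igf1 was 73.7 RPKM in LKO CD mouse 3, against 66.3 to 67.4 in the other LKO CD mice. Bcl6 was 10.8 RPKM in LKO CD mouse 1, against 3.05 to 4.17 in the other LKO CD mice. Without FF CD mouse 2, Socs2 differed by 0.013 between LKO CD and FF CD mice (adjusted p = 0.996, limma) in place of 0.39. Without LKO CD mouse 1, Bcl6 differed by -1.19 between them (adjusted p = 0.146, limma) in place of -0.85. Without LKO CD mouse 3, the difference of Igf1 between the diets in LKO mice was -0.10 in place of -0.14.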

How the results depend on the processing

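The number of the 10 genes called moved with some settings. Between the diets in FF mice it was 2, and 1 with no filter, with quantile normalization or with no moderation of the variance, 4 with the adjusted p alone, and 1 to 2 with a mouse left out. Between the diets in LKO mice it was 1, and 0 with quantile normalization or centring, 2 with the adjusted p alone, and 0 to 1 with a mouse left out. Between the genotypes it was 0 on CD with any mouse left out, and on HFD 1, 0 with no filter or no moderation, and 0 to 2 with a mouse left out. In the interaction it was 0, and 1 with a pseudocount of 0.1, quantile normalization or limma voom, and 0 to 2 with a mouse left out. A filter at a mean RPKM of 1 and the fit of only the groups compared (not run for the interaction) changed none of these counts. The deviations of same-numbered mice from their group means had r from -0.17 to 0.33 over 25 pairs, 10 of them over 0.1. Mice with different numbers were not compared in this way, so whether the numbers pair the mice cannot be told from these values. A replicate block changed none of the calls of the 10 genes (Bcl6 -0.95, adjusted p = 0.0471, and Socs2 1.33, adjusted p = 0.0398, limma).

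Differences that changed sign were all small and not called. Between LKO and FF mice on HFD, Stat5b (0.025) was -0.022 after rescaling to the same sum, -0.015 after quantile normalization and -0.012 after centring. Between the diets in LKO mice, Jak2 (0.048) was -0.062 and -0.048 after the latter pair of settings, and Igfals (0.085) was -0.011 after centring. Between the genotypes on CD, Igf1 (0.042) was -0.010 after quantile normalization, and Igfals (0.017) was -0.038 after quantile normalization and -0.016 after centring.

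With a mouse left out, other small differences changed sign too. Between the genotypes on CD, Jak2 ranged from -0.017 to 0.11, Stat5a from -0.0015 to 0.16, Igf1 from -0.0055 to 0.13, Igfals from -0.096 to 0.18 and Onecut1 from -0.34 to 0.13. Between the genotypes on HFD, Stat5a ranged from -0.045 to 0.045, Stat5b from -0.027 to 0.088 and Jak2 from -0.037 to 0.0010. Between the diets, Onecut1 ranged from -0.31 to 0.16 in FF mice and Jak2 from -0.00017 to 0.11 in LKO mice, and the interaction of Jak2 ranged from -0.12 to 0.0031.

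The pseudocount of 1 RPKM shrinks the differences of genes near 1 RPKM, such as Onecut1 (0.57 between the diets in LKO mice, and 0.995 with limma voom). Rescaling to the same sum moved the median of all genes between the diets in FF mice from 0.071 to 0.14, and centring to -0.020. Groups of 4 or 5 mice limit what can be seen for Socs2, Cish, Bcl6 and Onecut1, whose spread within groups is wide. Intervals of the fit cover the spread between mice.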
